A study of Drosophila melanogaster with 12 samples.

Results

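The genes described here are the insulin receptor gene InR, the downstream genes foxo and Thor, the binding protein gene ImpL2 and the peptide genes Ilp6 and Ilp8 of Drosophila melanogaster, chosen by symbol from the FlyBase identifiers of the expression table. Of these 6 genes, 5 had a row among the 10893 genes of the table. The identifier that the reference annotation gives for InR had no row, so InR is not analysed here. The rows used were FBgn0044047 for Ilp6, FBgn0036690 for Ilp8, FBgn0001257 for ImpL2, FBgn0038197 for foxo and FBgn0261560 for Thor. Polyadenylated RNA was sequenced from 12 groups, with 1 library in each. The groups were eye and antenna parts cut from the eye-antennal imaginal disc, each at 96 and 120 h after egg laying, whole discs joined to the mouthparts at 72 h, whole discs at 72, 96 and 120 h and at the white prepupal stage (WPP), and whole larvae at 72, 96 and 120 h. The eye-antennal disc is the larval epithelium that gives rise to the eyes, antennae and most of the head capsule of the adult. All groups carried the same strain label, w[11-18], larvae were reared at 25 °C, and the ages in hours are given to within 1 h. The labels name no transgene or drug, give no age in hours for the WPP library, and do not say how many animals or discs went into a library.

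In flies, insulin-like peptides bind the receptor InR, which acts through the adaptor chico, PI3-kinase and the kinase Akt to promote growth. Active Akt keeps the transcription factor foxo out of the nucleus. When signalling is low, foxo enters the nucleus and switches on genes such as Thor, which encodes the translation repressor 4E-BP. ImpL2 is a secreted protein that binds insulin-like peptides and limits their action. Ilp6 is an insulin-like peptide made largely by the fat body. Ilp8 is a relaxin-like peptide that growing or damaged discs secrete, and it delays pupariation through the receptor Lgr3.

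Levels are FPKM (fragments corrected for transcript length and library size), which sets genes on a common scale per length. The numbers of reads behind them are unknown. Summed FPKM was between 939303 and 2210260 per library, and from 8212 to 9664 genes reached 1 FPKM. The antenna library at 120 h had 17.8% of its summed FPKM in its top 10 genes, against 28.7% to 52.1% in the other libraries, and the WPP library had 981 genes listed at 0, against 212 to 609 in the others. The defining markers of both parts were present in their own part. At 96 h the summed level of 5 eye markers was 473 FPKM in eye and 36.0 FPKM in antenna, and at 120 h it was 379 and 28.3 FPKM in that order. For 5 antenna markers the sum was 22.6 FPKM in eye and 271 FPKM in antenna at 96 h, and 33.1 and 234 FPKM in that order at 120 h. Whole disc libraries also held RNA of larval fat body markers (47.6 to 795 FPKM summed over 7 markers with a row, in the 9 disc libraries), muscle markers and ring gland markers. In bulk samples such as these, fewer cells of a type and less RNA per cell cannot be told apart. Differences are given in log2(FPKM + 1), which understates the change of low genes.

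The members covered a wide span of levels. Over the 9 disc libraries, ImpL2 and Thor had medians of 129 and 184 FPKM, foxo had a median of 12.2 FPKM, Ilp6 one of 3.43 FPKM and Ilp8 one of 0.578 FPKM. Of the 4 members other than Ilp8, foxo varied least over the discs relative to its level, with its highest disc library at 1.76 times its lowest, while the ratio was 2.21 for Ilp6, 3.08 for ImpL2 and 7.52 for Thor. No ratio is given for Ilp8, whose lowest libraries were near 0. To gauge how much libraries of the same tissue can scatter, each whole disc was set against a weighted mean of both parts, and the 95th percentile of the absolute deviation over genes was 0.80 at 96 h and 0.85 at 120 h in log2(FPKM + 1). That percentile was taken over genes with at least 1 FPKM in both the whole disc and the mean. The 4 members other than Ilp8 lay within it at both ages, with deviations between -0.38 and 0.56. Ilp8 was under 1 FPKM there, so the measure cannot gauge it. Among the ordered disc libraries, neighbours more than 0.85 apart were found for Ilp8 alone, the member that this percentile does not gauge. The percentile also came from libraries of 96 and 120 h only. A gap between neighbours does not measure the whole range, which for Thor was 2.89 over the discs.

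**Figure D1:**
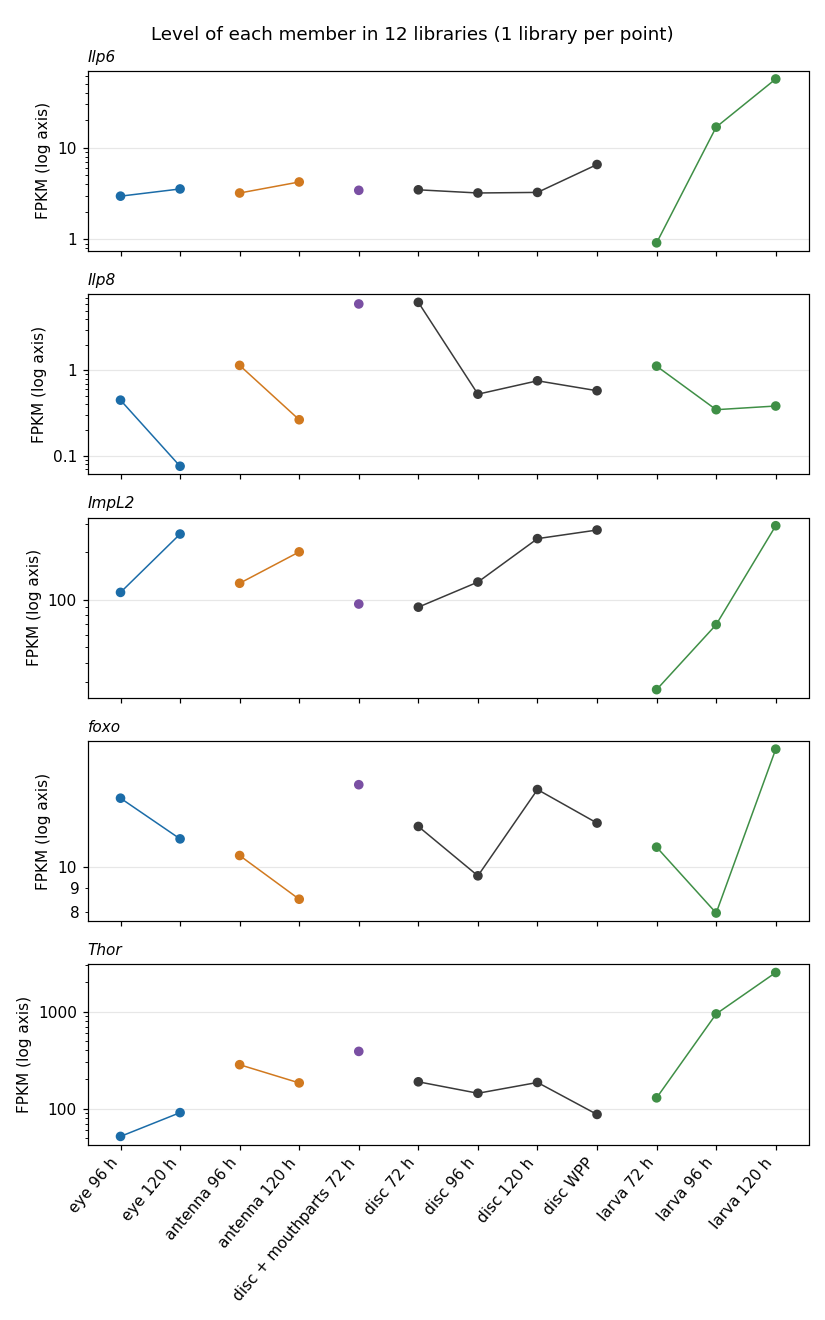
FPKM of the 5 members on a log axis in each of 12 libraries, 1 point per library, with lines joining ages of the same tissue. Ilp6 and Thor were high in whole larvae at 96 and 120 h, Ilp8 in the 2 disc libraries of 72 h, and ImpL2 in the libraries of 120 h and WPP, while foxo stayed between 7.97 and 17.8 FPKM.

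Of the ligands, Ilp6 was low and level in discs and spread widely over larvae. In the eye part it was at 2.96 FPKM at 96 h and 3.55 FPKM at 120 h. In the antenna part it was at 3.20 FPKM at 96 h and 4.23 FPKM at 120 h, and in discs with mouthparts at 3.43 FPKM. Whole discs held 3.47, 3.21 and 3.25 FPKM at 72, 96 and 120 h, and 6.56 FPKM at WPP. The WPP library was thus the highest of the discs, at 2.01 times the 120 h disc, a difference of 0.83 that was short of the size rule used for pairs of libraries. That rule asks that 2 libraries differ by 1 or more in log2(FPKM + 1) and that the higher one has 5 FPKM or more, and such pairs have no replicate and no test. Whole larvae held 0.917, 16.8 and 56.2 FPKM of Ilp6 at 72, 96 and 120 h. The larval library at 72 h was below every disc library, and those at 96 and 120 h were above every one. Ilp6 lies over the gene Raf on the other strand in the reference annotation, and whether strand was used in counting is not given in the sources used here. Raf was at 11.9 to 18.8 FPKM in discs and 4.73 to 7.98 FPKM in larvae, an order opposite to that of Ilp6 at 96 and 120 h.

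Ilp8 was highest in the youngest discs. Whole discs held 6.24, 0.527 and 0.756 FPKM at 72, 96 and 120 h, and 0.578 FPKM at WPP. The disc library with mouthparts at 72 h had 5.98 FPKM, so that the 2 libraries of 72 h discs stood together above the rest. The next disc library in order, the antenna part at 96 h, had 1.14 FPKM, a gap of 1.70. The antenna part at 120 h was at 0.265 FPKM, and eye libraries were at 0.449 FPKM (96 h) and 0.0758 FPKM (120 h). These levels are too near 0 for an order to be read among them. Whole larvae held 1.12, 0.347 and 0.383 FPKM at 72, 96 and 120 h. The whole disc at 96 h had 0.0844 times the Ilp8 level of the disc at 72 h, a difference of -2.25, and it was the single member past the size rule in that comparison, in which 7.96% of all genes were lower. With every library scaled to the same sum, the 72 h disc had less than 5 FPKM and the rule was not met, though the difference was still -2.003. The sum of 5 muscle markers with a row was 1575 FPKM in the 96 h disc and 5740 FPKM in the 72 h disc, and the sum of 7 fat body markers was 165 and 537 FPKM in the same order of libraries, none of them listed at 0. Their part in the Ilp8 difference was not tested. CG7730, which overlaps Ilp8 on the other strand, was at 5.42 FPKM in the 96 h disc and 7.11 FPKM in the 72 h disc. In whole discs against whole larvae at 72 h, Ilp8 was 5.57 times as high, and ImpL2 3.33 times, both past the size rule in the higher direction, which 34.4% of all genes also met.

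Genes that earlier work ties to Ilp8 were examined beside it: the JNK pathway (bsk, hep, puc, Jra, kay), the factors Ets21C, Xrp1 and Irbp18, the metalloprotease gene Mmp1, and yki and sd of the Hippo pathway. None of these 11 was past the size rule in the whole disc at 96 h against 72 h. In that pair 7.96% of all genes were past it in the lower direction, so 0 of 11 says little about this list. puc, a JNK target, was at 15.2 FPKM in the 96 h disc and 19.4 FPKM in the 72 h disc. Ets21C was at 1.40 FPKM in the 96 h disc and 2.21 FPKM in the 72 h disc. The receptor gene Lgr3 stayed between 0.404 and 1.23 FPKM over all disc libraries.

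The other peptide genes, Ilp2, Ilp3 and Ilp5, are known from the insulin-producing neurons of the larval brain. Ilp2 was at 24.0 FPKM in discs with mouthparts and 0.988 FPKM in discs without at 72 h, a difference of 3.65. Ilp5 was at 29.6 FPKM in discs with mouthparts and 1.00 FPKM in discs without, a difference of 3.93, while Ilp6 and Ilp8 differed by -0.01 and -0.05 between the same libraries. Both Ilp2 and Ilp5 were higher in the library with mouthparts than in any whole larva, where Ilp2 was at 7.40 to 10.04 FPKM and Ilp5 at 5.30 to 11.8 FPKM. At WPP the whole disc held 4.22 FPKM of Ilp2 and 2.24 FPKM of Ilp3, against 0.179 and 0.320 FPKM in the 120 h disc, while Ilp5 was listed at 0 at WPP and at 0.257 FPKM at 120 h. Neither WPP difference reached the size rule, since the higher library was under 5 FPKM.

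**Figure D2:**
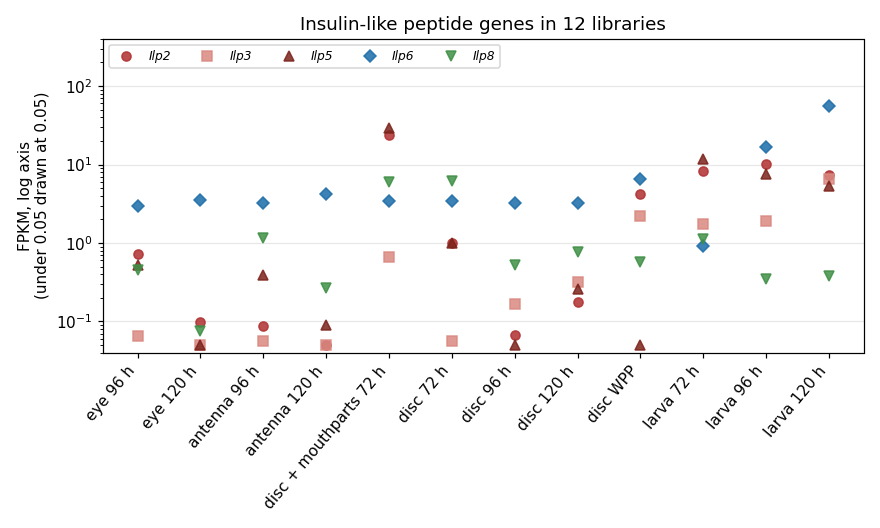
FPKM of 5 insulin-like peptide genes on a log axis in each of 12 libraries, 1 point per gene and library, with values under 0.05 drawn at 0.05. Ilp2 and Ilp5 peaked in discs with mouthparts (24.0 and 29.6 FPKM), Ilp8 was at 5.98 and 6.24 FPKM in the 2 disc libraries of 72 h, and Ilp6 was at 56.2 FPKM in larvae of 120 h.

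ImpL2 was higher at each later age in every tissue that was followed. Whole discs held 89.7, 129 and 243 FPKM at 72, 96 and 120 h, and 276 FPKM at WPP. The eye part was at 111 FPKM at 96 h and 260 FPKM at 120 h, and the antenna part at 127 FPKM at 96 h and 201 FPKM at 120 h. Discs with mouthparts had 93.9 FPKM. Every disc library of 120 h or WPP was above every disc library of 72 or 96 h. Whole larvae held 27.0, 69.6 and 294 FPKM at 72, 96 and 120 h, so that at 72 and 96 h they were below every disc library and at 120 h above them all.

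Discs at 120 h were set against discs at 96 h over 3 pairs (eye part, antenna part and whole disc) with limma, which takes the deviation between pairs as its error. ImpL2 averaged 0.93 higher at 120 h (SE 0.18), in 3 of 3 pairs, and it did not pass the Benjamini-Hochberg adjustment of limma over all genes (adjusted p = 0.0793, unadjusted p = 0.00335). Over 13 other settings its adjusted p in limma was between 0.0157 and 0.369, and it was under 0.05 in 1 of them, the scaling of every library to the same sum. Under that scaling the ImpL2 estimate was 1.02 (SE 0.32), and calls over all genes were 839 against 192 as deposited. None of the 4 members tested was called by limma in this comparison, with or without the trend and robust options, and 1 of 4 had an unadjusted p under 0.05. Over all 9081 genes tested, 2.11% were called. The whole disc is not independent of its parts in kind, and the 3 pairs had 2 residual degrees of freedom. Nothing says that the libraries came from separate batches of animals, so the p-values describe only how these libraries scatter, and that scatter may be technical. Differences for the other members were 0.18 for Ilp6 (SE 0.21), 0.18 for Thor (SE 0.31) and 0.01 for foxo (SE 0.22). The foxo pairs went both ways, with -0.27 in eye, -0.28 in antenna and 0.56 in whole disc. So did those of Thor, with 0.80, -0.62 and 0.37 in the same order. Ilp8 did not reach the filter of 1 FPKM in 2 of the 6 libraries.

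In single pairs, the eye part at 120 h was past the size rule against 96 h for ImpL2 alone among the members, at 2.34 times the level, where 3.73% of all genes were past it in the higher direction. In the antenna part, ImpL2 was 1.58 times as high at 120 h, and 0 members were past the rule, against 9.93% of all genes in either direction. The whole disc at 120 h held 1.88 times its 96 h level, again with 0 members past the rule, against 7.61% of all genes. The summed level of 11 ecdysone response genes was also higher at the later age in these tissues. It was 5407 FPKM at 120 h against 331 FPKM at 96 h for eye. For antenna it was 3871 FPKM against 354 FPKM, and for whole disc 2475 FPKM against 440 FPKM. Most of each 120 h sum was ImpE2, at 4582 FPKM in eye, 3135 FPKM in antenna and 1946 FPKM in whole disc. By the size rule 6 of the 11 were higher in each pair. Lower ones were 2 in eye, 3 in antenna and 1 in whole disc. In whole larvae the sum was 525 FPKM at 120 h against 738 FPKM at 96 h. Muscle markers were lower at the later age, at 26.5 FPKM at 120 h against 434 FPKM at 96 h for eye, 169 FPKM against 3923 FPKM for antenna, and 141 FPKM against 1575 FPKM for whole disc. Fat body markers were lower as well, at 92.1 FPKM at 120 h against 457 FPKM at 96 h for eye, 52.0 FPKM against 337 FPKM for antenna, and 47.6 FPKM against 165 FPKM for whole disc. Limma called 3 of 5 muscle and 4 of 7 fat body markers lower and 3 of 11 ecdysone response genes higher. The part of these lists in the ImpL2 levels was not tested.

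A second secreted binding protein, Sdr, a decoy related to the insulin receptor, was past the size rule in the whole disc at 96 h against 72 h, with 10.5 FPKM at 96 h and 2.94 FPKM at 72 h. It was the only one of 43 listed pathway genes with a row to pass there. In that pair 0 of the 43 were lower, against 7.96% of all genes, and the share of all genes that were higher is not given here. The count therefore does not single out Sdr. Discs with mouthparts at 72 h had 3.03 FPKM of Sdr, close to the disc without. Sdr stayed between 7.44 and 15.0 FPKM in all disc libraries from 96 h onward. conv, which encodes a secreted partner of ImpL2, was at 21.3 to 35.7 FPKM in all 9 disc libraries.

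foxo varied little. Whole discs held 12.2, 9.57 and 14.6 FPKM at 72, 96 and 120 h, and 12.4 FPKM at WPP. Discs with mouthparts had 15.0 FPKM, the eye part had 14.02 FPKM at 96 h and 11.5 FPKM at 120 h, and the antenna part had 10.6 FPKM at 96 h and 8.53 FPKM at 120 h. Larvae held 11.0, 7.97 and 17.8 FPKM at 72, 96 and 120 h. No neighbours in the order of 12 libraries were further apart than 0.24. The eye part was higher than the antenna part at both ages, by 0.38 and 0.39, and the limma estimate was 0.38 (SE 0.27, adjusted p = 0.663).

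Thor, the foxo target, was the member that differed most between parts of the disc in log2(FPKM + 1). The eye part held 51.6 FPKM at 96 h and 90.8 FPKM at 120 h, the lowest and the third lowest of all 12 libraries. The antenna part held 283 FPKM at 96 h and 184 FPKM at 120 h. Whole discs lay between or near the parts, with 189, 144 and 186 FPKM at 72, 96 and 120 h, and they had 87.0 FPKM at WPP. Discs with mouthparts had 388 FPKM, the highest of the discs.

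The eye part had 0.182 times the Thor level of the antenna part at 96 h, a difference of -2.43, and Thor was the 1 member past the size rule, where 5.23% of all genes were lower. At 120 h the ratio was 0.494 and the difference -1.01, again with Thor the 1 member past the rule, in the lower direction with 3.40% of all genes. That second difference lay at the edge of the rule and was -0.98 with a pseudocount of 5 or with median-ratio scaling. In limma over both ages Thor averaged -1.72 in the eye part against the antenna part (SE 0.37), lower in 2 of 2 ages, and did not pass the adjustment (adjusted p = 0.110, unadjusted p = 0.00658). Its adjusted p in limma over 13 other settings ran from 2.28e-05 to 0.498, and it was under 0.05 in 2 of them: 2.28e-05 with every library scaled to the same sum, and 0.0157 without the antenna library of 120 h. With the same sum, the Thor estimate was -1.86 (SE 0.38), close to that as deposited, while calls over all genes were 866 against 285. Of 4 members tested, 0 were called by limma in the eye part against the antenna part, where 3.14% of 9081 genes were called, and 1 of 4 had an unadjusted p under 0.05. Muscle markers were also lower in the eye part, 4 of 5 by the size rule at each age. Their sum was 434 FPKM for eye and 3923 FPKM for antenna at 96 h, and 26.5 and 169 FPKM in the same order of parts at 120 h. That sum was thus lower at 120 h in both parts. Thor was higher at 120 h in eye (51.6 FPKM at 96 h and 90.8 FPKM at 120 h) and lower in antenna (283 and 184 FPKM). Ring gland markers (6 with a row) summed to 408 FPKM for eye and 1389 FPKM for antenna at 96 h, and to 277 and 444 FPKM at 120 h. No marker of these lists was at 0, and their part in the Thor difference was not tested.

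At 72 h Thor was 2.06 times as high in discs with mouthparts as in discs without, a difference of 1.04 and the 1 member past the size rule, against 6.62% of all genes in the higher direction. With every library scaled to the same sum it was 0.90, short of the rule. Muscle markers summed to 10413 FPKM in discs with mouthparts and 5740 FPKM in discs without, and fat body markers to 795 and 537 FPKM in the same order; their part was not tested. At WPP the whole disc had 0.468 times the Thor level of the 120 h disc, a difference of -1.09 and the 1 member past the rule, with 6.48% of all genes past it in the lower direction. Under median-ratio scaling this difference was -0.96. Fat body markers summed to 498 FPKM at WPP and 47.6 FPKM at 120 h, muscle markers to 21.1 and 141 FPKM, and ecdysone response genes to 7617 and 2475 FPKM, each given for WPP and then 120 h; their part was not tested.

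For the 4 members other than Ilp8, the highest library stood further above the lowest among larvae than among discs, with ratios of 61.3 for Ilp6, 19.6 for Thor, 10.9 for ImpL2 and 2.24 for foxo. Thor was at 129, 945 and 2523 FPKM at 72, 96 and 120 h, and the last 2 values were above every disc library. Larvae at 96 h were past the size rule against 72 h in the higher direction for 3 of 5 members, with differences of 3.21 for Ilp6, 2.86 for Thor and 1.33 for ImpL2, where 6.67% of all genes were past it. Larvae at 120 h were past it against 96 h for 4 of 5 members, with 2.06 for ImpL2, 1.69 for Ilp6, 1.42 for Thor and 1.07 for foxo, where 18.8% of all genes were past it and the median difference of genes that reached 5 FPKM in the higher library was 0.61. Under median-ratio scaling 2 of these 4 were no longer past it: the difference was 0.80 for Thor and 0.51 for foxo. Fat body markers summed to 14762, 52446 and 33367 FPKM in larvae at 72, 96 and 120 h, and salivary gland markers (6 with a row) to 100, 132212 and 146661 FPKM. None of the fat body markers with a row was at 0, and the part of either tissue in these differences was not tested.

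**Figure D3:**
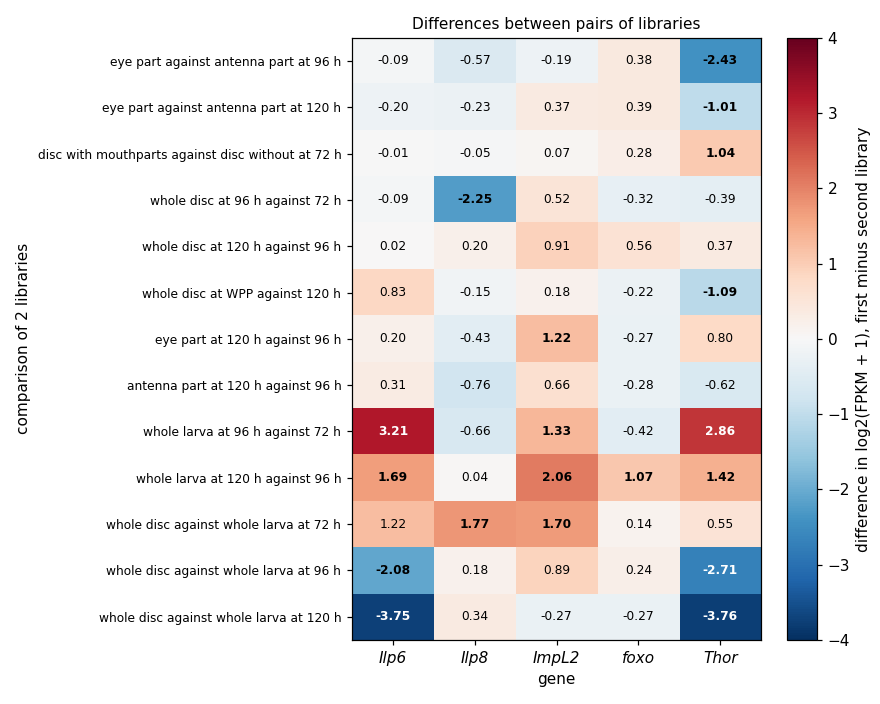
Difference in log2(FPKM + 1), first minus second library, for 5 members in 13 pairs of libraries, with bold numbers where the size rule was met. Larval age gave the differences of 3.21 for Ilp6 and 2.86 for Thor, whole disc against whole larva at 120 h gave -3.75 and -3.76 for the same genes, and foxo met the rule in 1 pair.

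Whole discs were set against whole larvae at the matched ages of 72, 96 and 120 h. Thor was higher in the disc than in the larva at 72 h, at 189 and 129 FPKM, and lower at the later ages, with 144 FPKM in the disc against 945 FPKM in the larva at 96 h and 186 FPKM against 2523 FPKM at 120 h. Ilp6 took the same course, with differences of 1.22, -2.08 and -3.75 at 72, 96 and 120 h. These 2 members were past the size rule in the lower direction at 96 h, with 14.8% of all genes, and at 120 h, with 17.4%.

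No member was called in the limma fit over the 3 ages: 0 of 5, with 0 at an unadjusted p under 0.05, while 50.1% of 9993 genes were called, 3588 higher (35.9%) and 1416 lower (14.2%) in discs. The median of all genes was 0.62 in discs over larvae in this fit and -0.12 under median-ratio scaling, which gave 1627 higher and 2004 lower calls. Estimates were -1.97 for Thor (SE 0.98, adjusted p = 0.171) and -1.54 for Ilp6 (SE 1.18, adjusted p = 0.348), and in both the 72 h pair went the other way. Without either 72 h library, limma gave -3.23 for Thor and -2.91 for Ilp6. Without either 96 h library it gave -1.61 for Thor and -1.26 for Ilp6, and without either 120 h library -1.08 and -0.43. The fits with a library left out had 1 residual degree of freedom, so no p-values are given for them here. ImpL2 was at 0.77 (SE 0.44, adjusted p = 0.169) and Ilp8 at 0.77 (SE 0.50, adjusted p = 0.219), both close to the median of all genes, and ImpL2 turned to -0.05 under median-ratio scaling. foxo was at 0.03 (SE 0.33, adjusted p = 0.937) and turned to -0.73 under median-ratio scaling, where limma called it (adjusted p = 0.0320).

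The rest of the pathway was described by 6 lists with 49 genes, of which 43 had a row. In discs at 120 h against 96 h limma called 0 of 39 tested genes, with 4 at an unadjusted p under 0.05. Among these, Pdk1, the kinase that activates Akt, differed by 0.62 (SE 0.13, adjusted p = 0.0912) and REPTOR, a transcription factor held back by TOR, by -0.68 (SE 0.17, adjusted p = 0.134). In the eye part against the antenna part limma also called 0 of 39, with 4 at an unadjusted p under 0.05. The lipase gene Lip4, a foxo target, was at 1.53 (SE 0.32, adjusted p = 0.0924). Its eye part levels were 4.34 FPKM at 96 h and 8.11 FPKM at 120 h, against antenna part levels of 1.38 and 1.47 FPKM. The triglyceride lipase gene bmm, also a foxo target, had eye part levels of 4.02 FPKM at 96 h and 5.99 FPKM at 120 h, against antenna part levels of 2.72 and 2.31 FPKM. Both lay in the opposite direction to Thor, which had its lower level in the eye part. Sesn, of the same list, was lower in the eye part as Thor was. It was at 1.98 FPKM in eye against 3.08 FPKM in antenna at 96 h, and 4.15 against 4.29 FPKM at 120 h. At WPP against 120 h, bmm (11.5 FPKM at WPP and 4.14 FPKM at 120 h) and Mmp1 (45.8 and 16.4 FPKM in the same order) were past the size rule.

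In whole discs against whole larvae limma called 22 of 42 tested pathway genes, 16 higher and 6 lower, with a list median of 0.74 beside 0.62 over all genes. These shares lay near those of all genes, of which 35.9% were called higher and 14.2% lower, so the counts say nothing particular about the pathway. The 6 lower genes were all peptide genes or foxo-linked genes. The limma estimate was -2.80 for Ilp2 (SE 0.46, adjusted p = 0.00196). It was -2.71 for Ilp5 (adjusted p = 0.00198 in limma) and -1.74 for Ilp3 (adjusted p = 0.0146 in limma). These were 3 of 3 genes tested from the peptide list, which leaves out the members. The member peptide genes Ilp6 (-1.54, adjusted p = 0.348) and Ilp8 (0.77, adjusted p = 0.219) were not called by limma in the same fit. Of 9 foxo partners and targets, Sesn, a stress-induced inhibitor of TOR signalling, fell by 2.51 (adjusted p = 0.00121 in limma), bmm fell by 2.21 and Lip4 fell by 1.96, while 14-3-3epsilon, which holds phosphorylated foxo in the cytoplasm, was higher by 1.60, melt by 1.15 and Sirt1 by 1.12. Ilp2, Ilp5, bmm and Sesn were past the threshold in 13 of 13 alternative settings, and Lip4 in 12 of 13. Ilp3 was past it in 8 of 12, and without a 96 h or a 120 h library its adjusted p in limma was 0.0584 to 0.101. These settings are not all separate checks, since leaving out either the disc or the larva of an age gave the same estimate. Discs held 1.98 to 5.57 FPKM of Sesn, against 18.3 to 37.6 FPKM in larvae.

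Of the secreted binding protein genes, limma called Sdr higher in discs by 1.82 (SE 0.45, adjusted p = 0.0101) and conv by 1.63 (SE 0.33, adjusted p = 0.00419). The member ImpL2, tested in the same fit, was not called (0.77, adjusted p = 0.169 in limma). The list counts that follow stand against 35.9% of all genes called higher in the same fit. In the PI3-kinase and Akt list 5 of 9 were called higher and 0 lower, among them step by 1.31 (adjusted p = 0.0142 in limma), Akt by 1.24, Lnk by 1.02 and dock by 0.98. Akt, the kinase at the centre of the cascade, was at 56.9, 59.0 and 58.8 FPKM in discs at 72, 96 and 120 h, against 17.0, 18.6 and 43.4 FPKM in larvae. In the TOR branch 2 of 8 were higher, rictor by 1.12 and Tor by 1.11, and 0 were lower. Among the genes tied to Ilp8, 4 of 11 were higher, sd by 1.81, bsk by 1.32, yki by 1.16 and Irbp18 by 1.08, and 0 were lower.

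The higher calls depended on scaling. Under median-ratio scaling limma called 11 pathway genes, 2 higher and 9 lower: conv (0.87) and sd (1.00) were the 2 still called among the 16, although all 16 estimates stayed above 0. Leaving out either 96 h library left 5 pathway genes called, and leaving out either 72 h library left 11.

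**Figure D4:**
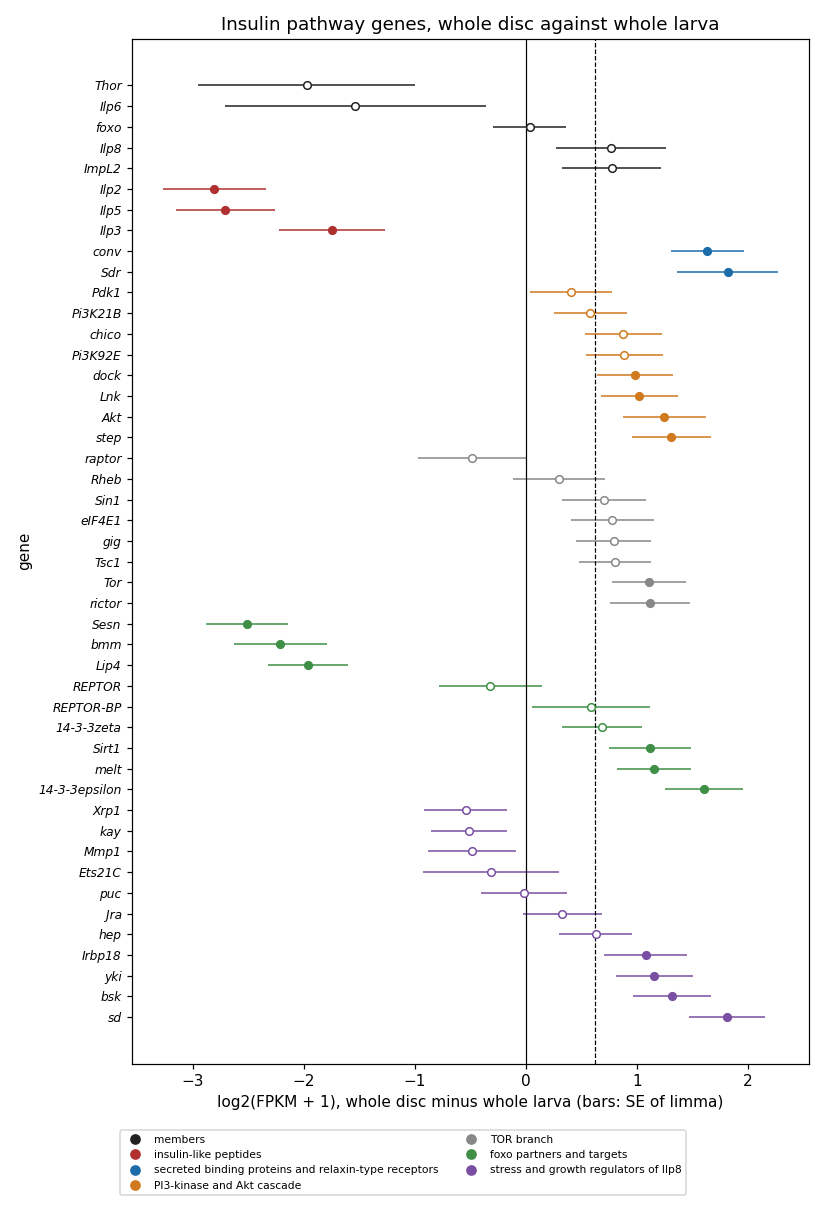
Limma estimate and SE in log2(FPKM + 1) for whole disc minus whole larva, over 3 matched ages, for the 5 members and 41 of the 42 pathway genes tested, by list, with filled points at an adjusted p under 0.05 and a dashed line at the median of all genes (0.62). Ilp2, Ilp3, Ilp5, Sesn, bmm and Lip4 were lower, 15 of the genes drawn were higher, and the 5 members were open points, with SE of 0.98 for Thor and 1.18 for Ilp6.

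The genes whose levels followed each member most closely over the 12 libraries were named by Pearson's r of log2(FPKM + 1) among 6579 genes, as a description over libraries that share tissue and age. For ImpL2 the closest was Pdk1 (r = 0.98), then CG3632 and Evi5 (both r = 0.97). Pdk1 was at 27.3, 29.5 and 42.9 FPKM in whole discs at 72, 96 and 120 h, at 48.2 FPKM at WPP, and at 12.4, 21.6 and 52.9 FPKM in larvae at 72, 96 and 120 h. Ilp8 was followed by CG13458 (r = 0.97), form3 (r = 0.95) and y (r = 0.94), the cuticle pigment gene yellow. Outside the 2 disc libraries of 72 h, Ilp8 was at most at 1.14 FPKM, so its r rests mostly on those 2 libraries. Of the 6579 genes, 22 had an r of at least 0.9 with Ilp8. y was at 48.1 FPKM in discs with mouthparts and 24.1 FPKM in discs without at 72 h, and at most 0.219 FPKM in any other disc library. Ilp6 was followed by CG9254, CG43060 (both r = 0.97) and CG11089 (r = 0.96), Thor by Wbp2, CG14995 (both r = 0.93) and Tep2 (r = 0.92), and foxo by HtrA2 (r = 0.91), Rab5 (r = 0.88) and Ack (r = 0.85). In the cluster numbers of the authors' deposited table, the 5 members fell into 5 different clusters of 11.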

How the data were processed

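Polyadenylated RNA was sequenced in 12 libraries, 1 per group, grouped by the labels' titles. The deposited table holds 1 value per gene and library. Per the submitters' processing notes the authors used TopHat and Cufflinks on build dm3. The versions, the annotation and the strand setting were not given in the sources used here. The values were read as FPKM made by the authors, since they are not whole and sum to 939303 to 2210260 per library. Read depth is unknown, so no counting interval is given, and an exact 0 is described as listed at 0. The authors' cluster number, a category in the deposited table, was only described.

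Gene symbols, transcript lengths and overlaps came from the BDGP6 reference, which is not the authors' build, so no coordinates are given. A symbol matched 10308 identifiers (94.6%), and 3 list names were carried to newer symbols. One listed gene, counted in its list, is not reported here by name. The members and lists were chosen with earlier results of these data known.

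Values were tested as log2(FPKM + 1) with limma 3.58.1 in R 4.3.3 (lmFit, eBayes with trend and robust, two-sided, Benjamini-Hochberg over all genes tested, threshold 0.05), after dropping genes that reached 1 FPKM in fewer than 2 libraries. One fit held eye, antenna and whole disc libraries of 96 and 120 h, the other held disc and larva libraries of 72, 96 and 120 h, each with terms for tissue and age, 6 libraries and 2 residual degrees of freedom. The fits were tested on simulated data. The 13 pairs of libraries used the size rule, of which 9 were planned and 4 added (whole disc at 120 h against 96 h, and disc against larva at each age). For the deviation of a whole disc from its parts, the eye part was given the weight of lowest median deviation (63% at 96 h, 62% at 120 h) over genes with a ratio of 4 or more between parts.

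Named pathway genes were those past a limma test and up to 3 largest differences past the size rule per pair. Others named with values (puc, Ets21C, Lgr3, Pdk1, REPTOR, and Ilp2, Ilp3 and Ilp5 at WPP) were picked after their values were seen. Likeness used genes with a symbol, a longest transcript of at least 1000 nt and at least 5 FPKM in at least 2 libraries. Alternatives were pseudocounts of 0.1 and 5, median-ratio scaling, scaling of every library to the same sum, other filters, eBayes without trend and robust, and each library left out. Tables were handled with pandas 2.3.3 and numpy 2.4.6 under Python 3.11.15.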

Additional observations from a re-analysis of the deposited data

Results flagged for a closer look

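Thor moved in opposite directions with age in the 2 parts of the disc. At 120 h against 96 h its difference in log2(FPKM + 1) was 0.80 for eye libraries and -0.62 for antenna libraries, so that the eye part's difference minus the antenna part's was 1.42. Each value rests on 1 library per age and part, and the difference between the parts was not tested.

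Thor and Ilp6 also changed the direction of their difference between disc and larva with age. For Thor, whole disc minus whole larva was -2.71 at 96 h and 0.55 at 72 h, which differ by -3.25, and -3.76 at 120 h, which differs from 72 h by -4.30. For Ilp6 it was -2.08 at 96 h and 1.22 at 72 h, which differ by -3.30, and -3.75 at 120 h, which differs from 72 h by -4.97. At 72 h Ilp6 was at 3.47 FPKM in the disc and 0.917 FPKM in the larva, both under the 5 FPKM of the size rule. The 72 h value is shared by both steps, and none of these differences was tested.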

How the results depend on the processing

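Scaling changed calls among the members. With every library scaled to the same sum, limma called 1 member (ImpL2, 1.02) and 1 pathway gene in discs at 120 h against 96 h, 1 member (Thor, -1.86) and 1 pathway gene in the eye part against the antenna part, and 3 members in whole disc against whole larva (Thor -1.36, Ilp6 -1.12, ImpL2 1.36). Median-ratio scaling called 1 member there, foxo, at -0.73 against 0.03 in FPKM as deposited, and 11 pathway genes against 22. Under the size rule, the same-sum scaling left 0 members in the whole disc at 96 h against 72 h and in discs with mouthparts against discs without, where 1 was past it in each as deposited, and put 1 member (ImpL2, 1.04) past it in the antenna part at 120 h against 96 h, where it was 0. Median-ratio scaling left 0 at WPP against 120 h, 2 of 4 in larvae at 120 h against 96 h, and 0 in the eye part against the antenna part at 120 h, where a pseudocount of 5 also left 0. Among discs, the same-sum estimates of the called members lay close to those as deposited. They were 1.02 (SE 0.32) against 0.93 (SE 0.18) for ImpL2 by age. For Thor between the parts they were -1.86 (SE 0.38) against -1.72 (SE 0.37). These 2 calls came with more calls over all genes, so they are not a sign of larger differences. The causes were not tested.

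Leaving out 1 library at a time, with 1 residual degree of freedom, limma called 0 to 1 members and 0 to 1 pathway genes in the eye part against the antenna part (1 member without the antenna library of 120 h, 1 pathway gene without that of 96 h), and 0 to 2 members and 5 to 23 pathway genes in disc against larva (2 members without either 72 h library). Over all genes, the 192 calls for age were 125 with a pseudocount of 5, 128 with median-ratio scaling, 839 with same-sum scaling and 95 with plain eBayes, and 1 to 344 with a library left out (1 without either eye library, 323 and 344 without the whole disc of 96 or 120 h). The 285 calls between the parts were 866 with same-sum scaling and 1 to 413 with a library left out, where the lowest value again came without either eye library. The 5004 calls for disc against larva were 1345 to 4814 with a library left out, with 1345 without the 96 h disc and 1976 without the 96 h larva. No paired analysis was possible because each group held 1 library and no groups compared share 2 replicate numbers. The pairing of libraries by tissue and age is already in the fits. For age and for disc against larva, leaving out either library of a pair gave the same estimate, so these settings are not separate checks. With no replicates and unknown read depth, Ilp8 below about 1 FPKM cannot be ordered between libraries.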
